A study of Mus musculus with 7 samples.

Results

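Sca-1, cKit, CD34, Flt3, CD48 and CD150 are the surface proteins by which mouse blood stem and progenitor cells are sorted and divided into subsets, and their transcripts are Ly6a, Kit, Cd34, Flt3, Cd48 and Slamf1. These 6 genes were taken by symbol from the 32285 genes of the feature lists, and each symbol matched 1 gene. Their unique molecular identifiers (UMIs, each standing for 1 captured transcript) were counted in single LSK cells, the lineage-negative, Sca-1-positive and cKit-positive cells of mouse bone marrow. The study compared 3 libraries labelled B4galt1 KO (genotype 129S1/C57Bl/6, B4-/-, a full knockout of a galactosyltransferase gene) with 4 libraries labelled WT (129S1/C57Bl/6). The labels give tibia and femur marrow with red cell lysis and LSK sorting for all 7 libraries, and give no age, sex or pooling of the mice. Nothing in them ties a replicate number to separate animals, so p-values measure only the spread between these libraries.

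Kit is the receptor tyrosine kinase for stem cell factor, on which stem cells, early progenitors and mast cells depend. Ly6a encodes Sca-1, a small protein anchored to the membrane by a lipid and induced by interferon. Together they define the sort that precedes the subsets: CD34 is a sialomucin that appears as long-term stem cells become active, and Flt3 is the receptor kinase whose rise accompanies the lymphoid-primed multipotent progenitors. CD150, made from Slamf1, and CD48 belong to the SLAM family of receptors. Stem cells are sorted as CD150-positive and CD48-negative, while CD48 comes up in the multipotent progenitors that follow.

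Cd48 and Slamf1 lie next to one another on chromosome 1 (GRCm38: Cd48 from 171682009 to 171705258, Slamf1 from 171767127 to 171801184, both on the plus strand), with 61868 bases between them. Their transcripts moved in opposite directions across the stem gate described below, so the stretches around their starts are printed, from 250 bases before to 30 bases after the start in the RefSeq table for GRCm38.p6. Capitals mark matches, on either strand, to motifs of GATA, ETS and RUNX factors, and no capitals overlap. The GATA motif was searched as AGATAA and, as a second form, as TGATAA. The ETS motif was searched as CGGAAGT and, as a second form, as CAGGAAG. The RUNX motif was searched as TGTGGT.
Cd48, chr1:171681742-171682021, plus strand: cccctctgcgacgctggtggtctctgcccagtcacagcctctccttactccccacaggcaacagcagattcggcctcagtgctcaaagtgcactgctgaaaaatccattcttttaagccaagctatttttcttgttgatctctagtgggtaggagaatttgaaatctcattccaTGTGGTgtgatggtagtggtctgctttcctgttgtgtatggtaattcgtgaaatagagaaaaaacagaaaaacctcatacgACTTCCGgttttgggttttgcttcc
Slamf1, chr1:171766882-171767161, plus strand: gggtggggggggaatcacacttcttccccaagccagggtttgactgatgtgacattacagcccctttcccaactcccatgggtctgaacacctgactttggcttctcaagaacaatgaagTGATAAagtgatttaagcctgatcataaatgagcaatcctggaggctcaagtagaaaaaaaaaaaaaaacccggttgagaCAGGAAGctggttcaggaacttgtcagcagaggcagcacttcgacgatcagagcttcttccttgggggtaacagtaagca
The Cd48 stretch held TGTGGT at position -76 from the start and the ETS letters CGGAAGT on the minus strand, seen here as ACTTCCG, at position 5. The Slamf1 stretch held TGATAA at -130 and CAGGAAG at -50. Of 32541 such stretches in the table, 17.81% held a GATA match, 17.85% an ETS match and 15.54% a RUNX match, so these letters are common. Of the other members, Cd34 (chromosome 1, 194938819 to 194961279, plus strand) had 1 ETS match at -142, and Kit (chromosome 5, 75574916 to 75656722, plus strand) and Flt3 (chromosome 5, 147330741 to 147400489, minus strand) had none of these letters. The table matched 5 of the 6 members. Ly6a lies on chromosome 15, from 74994877 to 74998031 on the minus strand, among close relatives of the Ly6 family, and reads it shares with them may be split or lost.

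Libraries held 14970791 to 89747946 UMIs, and 1168 to 8862 cells per library passed the filters, with medians of 8046 to 11078 UMIs. The barcodes came from different lists: knockout replicate 3 and wild-type replicate 4 (list B) used 480 opening sequences of 6 bases, and the other 5 libraries (list A) used 900 to 958. The filters kept 98.3% and 96.2% of the barcodes of list B libraries, and 32.3% to 49.9% of those of list A. Pairs of libraries shared 0 to 7 barcodes, except for 88 shared by the pair of list B. These 2 libraries held 6971 and 9210 barcodes, and how many they would share by chance was not tested. B4galt1, the check of the labels, stood at 51.2, 55.6 and 27.4 CPM (UMIs of the gene scaled to a common library total) in the libraries labelled knockout and at 56.5, 69.0, 56.8 and 34.8 CPM in those labelled wild-type. Its log2 difference was -0.17 ± 0.26 (SE, edgeR adjusted p 1.00), and its values overlapped between the labels. Which exons were removed is not given in the sources used here, and counts of a 3′ end beyond them would say nothing about the labels.

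Because list A and list B each hold both labels, all sums below are given per library, and tests were also run with the list as a covariate or on list A alone. Kit was low in list B. Its level over all kept cells was 164, 198 and 137 CPM in knockout replicates 1 to 3 and 254, 305, 309.9 and 141 CPM in wild-type replicates 1 to 4, and the lowest library of each label was the one of list B. Cd48 showed the opposite, with 142, 110.3 and 249.8 CPM against 123, 98.8, 119 and 182 CPM, where list B gave the highest library of each label. Ly6a followed Cd48, at 30.4, 22.7 and 48.2 CPM against 28.0, 16.5, 28.7 and 44.6 CPM. Cd34 stood at 211, 283 and 403 CPM in the libraries labelled knockout and at 340.1, 317, 361 and 381 CPM in those labelled wild-type, again highest in list B. Slamf1 was low throughout, at 5.67, 4.76 and 9.64 CPM against 3.18, 6.29, 3.72 and 5.67 CPM.

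**Figure D1:**
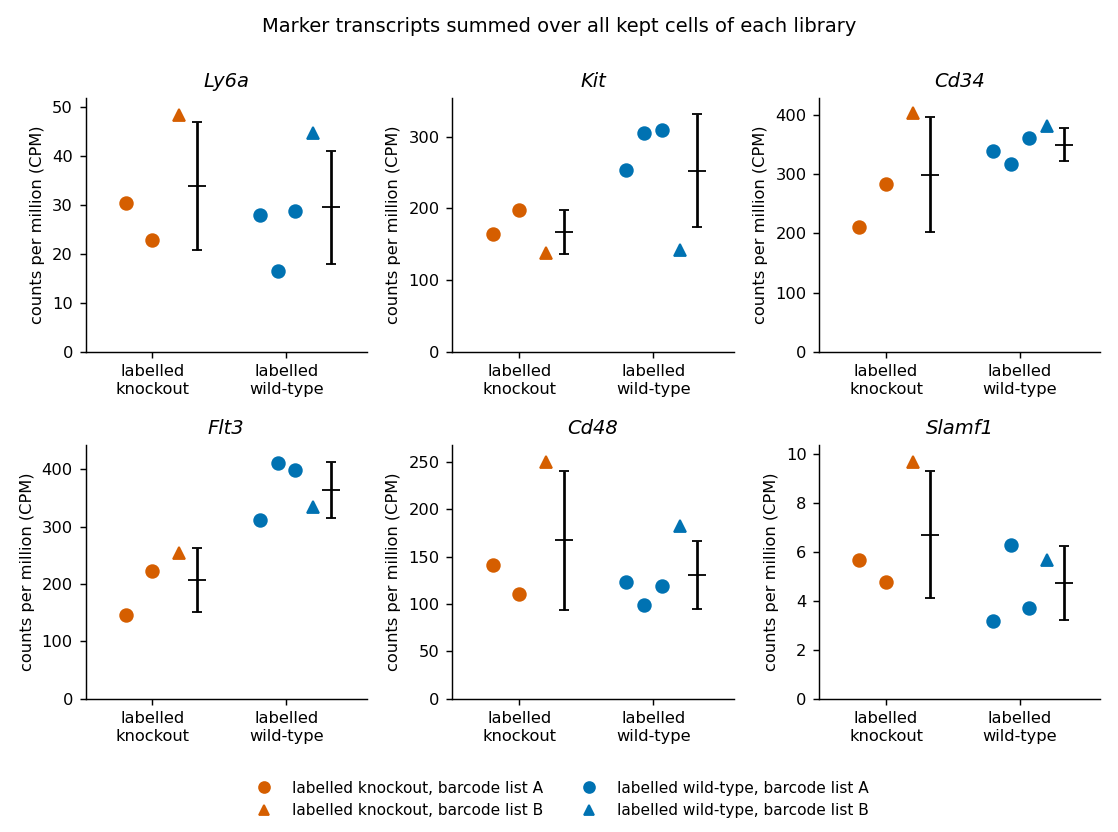
Level of each marker transcript in CPM summed over all kept cells, 1 point per library, grouped by label, with circles for barcode list A and triangles for list B and the mean ± SD beside each group (n = 3 and 4). Flt3 is the member whose groups do not overlap (146 to 253 against 312 to 412 CPM), and for Kit, Ly6a and Cd48 the triangles lie together at 1 end.

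Flt3 was lower in the libraries labelled knockout. Its level was 146, 223 and 253 CPM in them and 312, 412, 398 and 334 CPM in those labelled wild-type, or 207 ± 55.4 (SD, n = 3) against 364 ± 48.4 CPM (SD, n = 4). The highest knockout value lay under the lowest wild-type value, and in the other 5 members the groups overlapped, while 5.71% of all tested genes had no overlap. The edgeR quasi-likelihood test across 14632 genes gave a log2 difference of -0.68 ± 0.29 for Flt3 (unadjusted p 0.0438, adjusted p 1.00) and called 0 of the 6 members, 0% of all genes (693 at an unadjusted p below 0.05, and 96 called by DESeq2). With the barcode list as a covariate Flt3 differed by -0.75 ± 0.19 (unadjusted p 0.00294, adjusted p 0.101), and 0 members were called against 1.07% of all genes. Within list A the difference was -0.93 ± 0.22 (adjusted p 0.0631), and the single pair of list B gave -0.40 with no test. Flt3 was thus lower under the knockout label in each list without passing the adjusted threshold. Fewer Flt3-rich cells and less Flt3 RNA per cell cannot be told apart in these whole-library sums.

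To follow the members across lineage states, cells of at least 3000 UMIs were thinned to 3000 and gated on genes other than the members. A cell was stem-gated with at least 2 UMIs of Procr, Fgd5, Hlf, Mecom, Mllt3, Trpc6, Pdzk1ip1 and Sult1a1 in sum, granule-gated with at least 5 UMIs of the granule genes Mpo, Elane, Prtn3, Ctsg and Ms4a3, and lymphoid-gated with at least 2 UMIs of Dntt, Rag1, Rag2, Il7r and Arpp21. Monocyte, megakaryocyte and erythroid gates were set in the same way, cells passing several gates were left out, and cells passing none are called ungated. These are ranges on scores and not types: of 13417 cells passing the stem gate, 3269 sat at its threshold and 4257 more were 1 UMI below it. For the granule gate the numbers were 5585, 955 and 1446, and for the lymphoid gate 2773, 802 and 1967. Stem-gated cells made up 35.4% to 39.6% of a library labelled knockout and 49.9% to 65.9% of one labelled wild-type. Granule-gated cells made up 12.7% to 22.2% against 2.83% to 5.84%, and lymphoid-gated cells 1.94% to 5.08% against 5.98% to 8.51%. Cells left out for passing several gates made up 19.0% to 40.4% against 11.6% to 17.8%.

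The sorting genes Ly6a and Kit were both highest in stem-gated cells. Ly6a stood there at 84.1, 48.9 and 83.5 CPM in the libraries labelled knockout and at 43.0, 21.6, 38.5 and 64.2 CPM in those labelled wild-type, a mean of 54.8 ± 23.5 CPM (SD, n = 7). It was lower in lymphoid-gated (28.6 ± 13.4) and ungated cells (27.8 ± 16.1), the former above the latter in 3 of 7 libraries, and lowest among the gates filled in all 7 libraries in granule-gated cells (12.6 ± 7.04 CPM). Against stem-gated cells, in edgeR fits with the library as a block, Ly6a was lower by a log2 difference of -1.97 ± 0.11 in granule-gated (adjusted p 1.24e-18), -1.78 ± 0.22 in monocyte-gated (8.18e-09), -1.0 ± 0.12 in lymphoid-gated (1.89e-09) and -0.92 ± 0.11 in ungated cells (1.13e-08). It was lower in each of the 7 libraries for granule-gated, lymphoid-gated and ungated cells, and in each of the 4 with enough monocyte-gated cells. In list A alone the granule difference was -2.35.

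Kit stood in stem-gated cells at 285, 304 and 173 CPM in the libraries labelled knockout and at 336, 388, 373 and 167 CPM in those labelled wild-type. The order from there was ungated (218 ± 54.0 CPM), granule-gated (172 ± 46.0) and lymphoid-gated (117 ± 32.2), with monocyte-gated cells at 83.2 ± 24.1 CPM over 4 libraries. Relative to stem-gated cells Kit fell by 0.32 ± 0.08 in ungated, 0.60 ± 0.08 in granule-gated, 1.14 ± 0.08 in lymphoid-gated and 1.42 ± 0.13 in monocyte-gated cells on the log2 scale (edgeR adjusted p 0.00118, 5.14e-09, 3.75e-15 and 8.36e-12). Each of the 7 libraries showed the first 3 of these falls. Within list B alone the ungated difference was -0.15 (adjusted p 0.228).

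**Figure D2:**
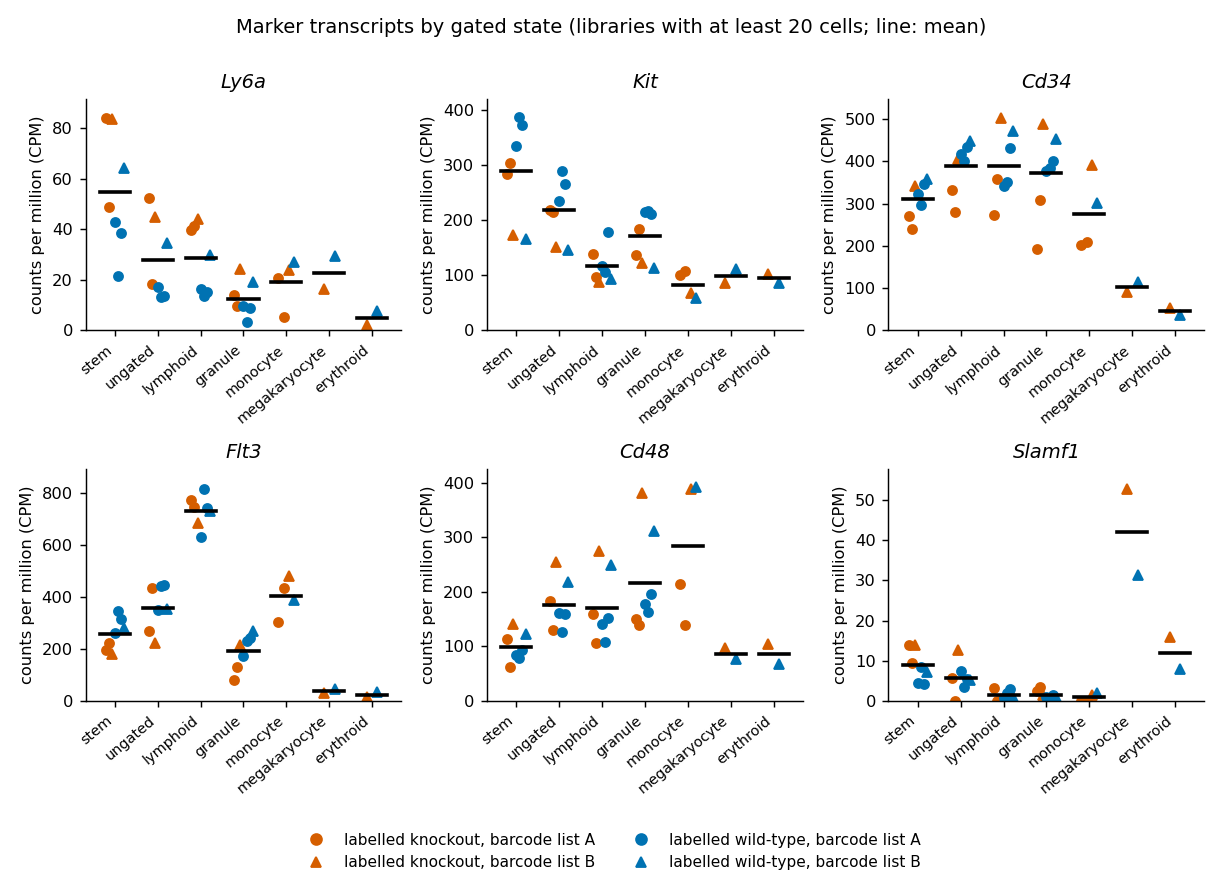
Level of each marker transcript in CPM by gated state, 1 point per library with at least 20 such cells (circles list A, triangles list B, colours the label) and a line at their mean. Ly6a and Kit are highest in stem-gated, Flt3 in lymphoid-gated, Cd48 in monocyte-gated and Slamf1 in megakaryocyte-gated cells, the last 2 gates being filled in 4 and 2 libraries.

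Flt3 was highest in lymphoid-gated cells. There it stood at 772, 747 and 683 CPM in the libraries labelled knockout and at 630.3, 817, 742 and 732 CPM in those labelled wild-type, a mean of 732 ± 60.3 CPM (SD, n = 7), and the groups interleaved. In stem-gated cells it stood at 194, 222 and 182 CPM against 261, 346, 316 and 279 CPM. Flt3 rose from stem-gated to lymphoid-gated cells by 1.62 ± 0.17 on the log2 scale (edgeR adjusted p 4.4e-08), in 7 of 7 libraries (1.23 to 1.99), and to monocyte-gated cells by 0.90 ± 0.22 (adjusted p 0.00263). From stem-gated to ungated cells it rose by 0.52 (adjusted p 0.0206), which was 0.36 with adjusted p 0.165 in list B alone and 0.52 with adjusted p 0.0543 without wild-type replicate 3. Granule-gated cells held 192 ± 66.6 CPM of Flt3, and their difference from stem-gated cells depended on the list: -0.31 ± 0.17 over all libraries (adjusted p 0.113), -0.64 in list A (0.00317) and 0.20 in list B (0.349).

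Cd34 means spread less than those of Flt3 over the stem-gated, lymphoid-gated, ungated and granule-gated cells. Its means were 390.0 ± 81.6 CPM in lymphoid-gated, 388 ± 59.9 in ungated and 372 ± 97.5 in granule-gated cells, within their spread of one another, and 310.2 ± 43.7 in stem-gated cells. It rose against stem-gated cells by 0.39 in lymphoid-gated, 0.38 in ungated and 0.36 in granule-gated cells (each ± 0.08, edgeR adjusted p 0.000102, 0.000266 and 0.000123). Knockout replicate 1 was the library in which granule-gated cells held less Cd34 than stem-gated ones, at 193 against 269.8 CPM. In monocyte-gated cells the difference was -0.05 ± 0.11 (adjusted p 0.766).

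The SLAM genes Cd48 and Slamf1 ran opposite to each other. Cd48 stood in stem-gated cells at 114, 62.7 and 141 CPM in the libraries labelled knockout and at 84.6, 79.6, 93.2 and 122 CPM in those labelled wild-type. In granule-gated cells it stood at 151, 139 and 381 CPM against 178, 163, 197 and 313 CPM, higher than in stem-gated cells in 7 of 7 libraries. The rise was 1.21 ± 0.08 on the log2 scale in granule-gated (edgeR adjusted p 5.44e-17), 1.40 ± 0.11 in monocyte-gated (1.87e-14), 0.87 ± 0.08 in ungated (4.69e-11) and 0.83 ± 0.08 in lymphoid-gated cells (2.33e-11).

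Slamf1 stood in stem-gated cells at 14.0, 9.54 and 13.9 CPM in the libraries labelled knockout and at 4.49, 8.45, 4.29 and 7.23 CPM in those labelled wild-type. It was at 1.53 ± 1.12 CPM in granule-gated and 1.52 ± 1.27 CPM in lymphoid-gated cells. The falls from stem-gated cells were -2.42 ± 0.29 (edgeR adjusted p 6e-09) and -2.68 ± 0.39 (7.75e-07), in 7 of 7 libraries each, and -3.42 ± 0.89 in monocyte-gated cells (0.00298), where 2 UMIs of Slamf1 were counted in all. Single libraries lay at or near 0 in the other 2 states as well. Granule-gated cells of wild-type replicate 2 held 0 CPM, and lymphoid-gated cells of knockout replicate 3 held 0.469 CPM. In list A alone the granule and lymphoid differences were -1.96 and -1.70, smaller in size. Ungated cells did not differ from stem-gated ones by the test (-0.33 ± 0.23, adjusted p 0.31). Of the 6 members 5, 6, 5 and 5 passed the threshold for granule-gated, lymphoid-gated, monocyte-gated and ungated cells, against 65.1%, 40.7%, 33.4% and 29.2% of all genes, and in the added contrast of lymphoid-gated with granule-gated cells 4 passed against 39.6%. In that contrast Flt3 was higher by 1.93 ± 0.17 and Ly6a by 0.97 ± 0.14 in lymphoid-gated cells, and Kit (-0.53) and Cd48 (-0.38) were lower.

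Megakaryocyte-gated and erythroid-gated cells were frequent enough only in list B, with 107 and 29 cells in knockout replicate 3 and 40 and 109 in wild-type replicate 4. Slamf1 reached 52.8 and 31.3 CPM in the megakaryocyte-gated cells of these libraries, against 13.9 and 7.23 CPM in their stem-gated cells, a log2 rise of 2.01 ± 0.21. Flt3 was at 29.5 and 47.0 CPM there and Cd34 at 90.8 and 114 CPM, against stem-gated levels of 182 and 279 CPM for Flt3 and 341 and 357 CPM for Cd34. In erythroid-gated cells Cd34 was at 53.6 and 36.4 CPM, Flt3 at 15.9 and 33.1 CPM and Ly6a at 1.99 and 7.65 CPM, while Kit held 103 and 85.9 CPM. The test on list B, with 1 library per label and the library as a block, called 6 of 6 members in megakaryocyte-gated cells (28.3% of all genes) and 5 of 6 in erythroid-gated cells (58.2%), all lower than in stem-gated cells but Slamf1 in the former.

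The stem gate was loose, so cells passing no other gate were ordered by their UMIs of the 8 stem genes. This ordering was added after the data had been seen. From 0 UMIs to 8 or more, the mean level over the 7 libraries went from 25.3 to 81.3 CPM for Ly6a, from 199.5 to 320.2 CPM for Kit and from 5.61 to 13.8 CPM for Slamf1. It went from 396 to 227 CPM for Cd34, from 393 to 206 CPM for Flt3 and from 193 to 45.6 CPM for Cd48. The Cd48 means fell from each of the 6 steps of the gate to the next (193, 165, 153, 119, 89.0 and 45.6 CPM). In the top step the libraries stood at 59.6, 39.3 and 33.4 CPM under the knockout label and 49.5, 42.7, 55.1 and 39.5 CPM under the wild-type label. There list B gave the lowest library of each label, unlike over all kept cells. Below the top step the Slamf1 means by label, a difference not tested along the steps, ran 6.10, 5.99, 8.92, 10.2 and 11.4 CPM under the knockout label and 5.24, 5.47, 3.06, 3.89 and 5.40 CPM under the wild-type label. In the top step they were 18.5 and 10.3 CPM, with libraries at 20.4, 14.5 and 20.7 CPM against 5.61, 13.8, 6.32 and 15.3 CPM. These Slamf1 means rest on few UMIs. Over all kept cells wild-type replicates 1 to 3 held 41, 79 and 64 UMIs of Slamf1, and knockout replicate 2 held 82. Knockout replicate 2 had 20 and 41 cells at 0 and 1 stem UMIs, with no UMI of Slamf1 in them. Slamf1 was not alone in differing by label along the steps. At each of the 6 steps the mean of Ly6a was higher and those of Kit, Cd34 and Flt3 lower under the knockout label. At 5 to 7 UMIs, for example, Cd34 stood at 278 against 331 CPM and Flt3 at 197 against 297 CPM. The groups of Ly6a and Kit overlapped at each step, and those of Cd34 and Flt3 at some of them. Within list B, Kit was not lower in the knockout library at 0 UMIs (143 against 136 CPM) or in the top step (191 against 177 CPM). At 5 to 7 UMIs it stood there at 173.0 against 173.4 CPM. None of these label differences was tested along the steps either.

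Set against cells with 0 or 1 stem UMIs, cells with 8 or more held less Cd48 (log2 difference -2.05 ± 0.18, edgeR adjusted p 1.44e-05), Flt3 (-0.93 ± 0.08, 3.06e-09) and Cd34 (-0.88 ± 0.07, 2.17e-10). They held more Ly6a (1.48 ± 0.10, 4.18e-13), Slamf1 (1.09 ± 0.25, 0.00123) and Kit (0.42 ± 0.06, 1.95e-06). Each direction held in 7 of 7 libraries, except for Slamf1 with 6 of 7, where wild-type replicate 1 went the other way. All 6 members passed the threshold, as did 53.0% of all genes. In list A alone the 6 values were -1.71, -0.78, -0.71, 1.36, 1.12 and 0.52 in the same order.

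**Figure D3:**
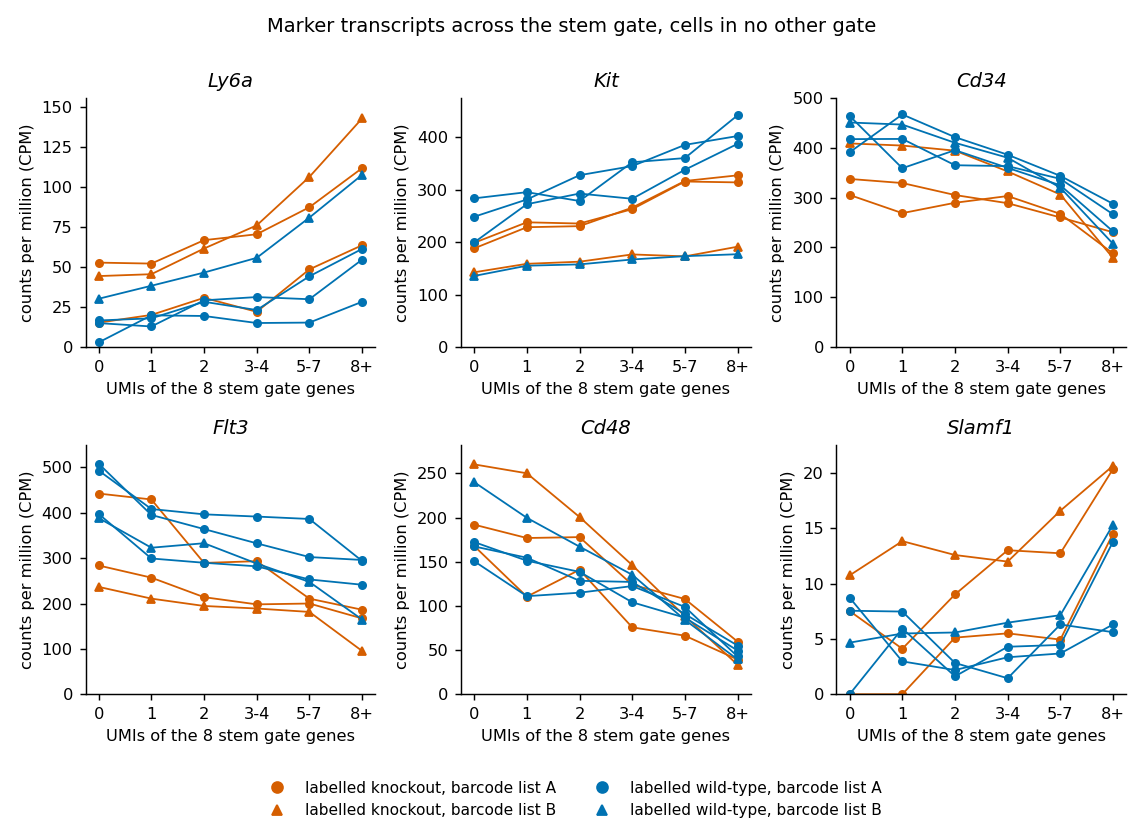
Level of each marker transcript in CPM against the number of UMIs of the 8 stem gate genes in cells passing no other gate, 1 line per library (circles list A, triangles list B, colours the label). Cd48, Flt3 and Cd34 are lower and Ly6a and Kit higher in the top step than in the lowest one in each library, and for Slamf1 the same holds in 5 of 7 libraries, wild-type replicates 1 and 3 being lower in the top step.

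Other surface markers of LSK subsets, apart from the gate genes, were read in the same contrast of 8 or more against 0 or 1 stem UMIs. Of 10 tested, 6 were higher and 3 lower, with a median log2 difference of 0.59 against 0.02 for all genes, of which 53.0% passed the threshold. Among those that were higher were the adhesion molecule Esam (1.51) and endoglin, Eng (0.71). Of 15 genes tested from the signalling pathways of Kit and Flt3, 7 were higher and 1 lower, a share near the 53.0% of all genes, with the cytokine signalling inhibitor Socs2 (2.81), the adaptor Dok1 (0.36), the ubiquitin ligase Cblb (0.35) and the phosphatidylinositol kinase subunit Pik3r1 (0.30). Of 3 SLAM family genes tested, Cd84 was higher (0.52) and Cd244a, which encodes the receptor for CD48, was lower (-1.0). Emcn, which like Cd34 encodes a sialomucin, was higher (1.16), and Ly6e of the Ly6 family was lower (-0.38). Of 3 lineage antigens tested Ptprc was higher (0.32) and Itgam lower (-0.69).

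In lymphoid-gated against stem-gated cells the same lists were read beside the 40.7% of all genes that passed the threshold. Of 11 other surface markers 2 were higher and 5 lower, among the latter Tek (-3.85), Esam (-3.75) and Cd9 (-1.53). Of 6 SLAM family genes 3 were higher, Slamf6 (3.00), Slamf7 (2.56) and Ly9 (0.85), and 2 lower, one of them Slamf8 (-3.36). Ly6d, a marker of early lymphoid commitment, was higher by 6.73, one of 2 Ly6 genes of 4 that rose. Of 15 pathway genes 4 were higher and 6 lower, with Stat5a at -0.76 and Gab2 at -0.64, while Emcn was lower (-0.90) and Cd5 the 1 lineage antigen of 5 that rose (2.33). In granule-gated cells, where 65.1% of all genes passed, 2 of 11 other surface markers were higher, with Fcgr3 at 4.55, and 5 lower, with Esam at -2.85 and Tek at -2.03. There 0 of 15 pathway genes were higher and 7 lower, with Socs2 at -3.37 and Dok2 at -0.72, and 3 of 4 Ly6 genes were higher and 0 lower, with Ly6c2 at 5.82, Ly6k at 1.76 and Ly6e at 0.70. Of 6 SLAM genes 1 was higher and 2 lower, Emcn was lower (-1.69), and of 5 lineage antigens 2 were lower, Ptprc (-0.46) and Klrb1c (-1.03).

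The label comparison was repeated within states, where the mix of states is held more nearly constant. In stem-gated cells Flt3 was at 199 ± 20.6 CPM (SD, n = 3) under the knockout label and 300.4 ± 38.3 CPM (SD, n = 4) under the wild-type label, with no overlap. Slamf1, at 12.5 ± 2.53 against 6.12 ± 2.06 CPM, did not overlap either and was higher under the knockout label. These were 2 of 6 members without overlap, against 1.73% of all genes. The edgeR test gave -0.57 ± 0.25 for Flt3 and 1.05 ± 0.36 for Slamf1 (unadjusted p 0.0486 and 0.018, adjusted p 1.00 for both), and with the list as a covariate -0.58 ± 0.14 (adjusted p 0.196) and 1.02 ± 0.24 (adjusted p 0.178), where 0.114% of genes were called. Ly6a in stem-gated cells differed by 0.77 in both fits, with overlapping groups and adjusted p 1.00 and 0.593, and by 1.20 without wild-type replicate 4.

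In lymphoid-gated cells Ly6a was at 39.7, 41.4 and 44.1 CPM under the knockout label and 16.5, 13.5, 15.2 and 30.0 CPM under the wild-type label, without overlap, as in 2.35% of all genes. Its difference was 1.10 ± 0.39 (edgeR adjusted p 1.00), and 0.95 ± 0.24 with the list as a covariate (unadjusted p 0.000426, adjusted p 0.128), where 0.195% of genes were called. Flt3 differed by 0.03 ± 0.29 there. In granule-gated cells Flt3 differed by -0.62 (adjusted p 1.00), and by -0.79 with the covariate (adjusted p 0.38); without knockout replicate 3 it was -1.18, and without knockout replicate 1 it was -0.34. In ungated cells Ly6a differed by 0.94 (adjusted p 1.00), and by 0.95 with the covariate (adjusted p 0.538); without wild-type replicate 4 it was 1.57. In granule-gated and ungated cells all members tested overlapped between the labels, against 1.96% and 1.59% of genes without overlap, and the covariate fits called 0.00894% and 0.203% of genes. In cells with 8 or more stem UMIs Flt3 was at 150 ± 47.9 against 249 ± 61.6 CPM, a difference of -0.72 ± 0.30 (adjusted p 1.00), and -0.70 ± 0.16 with the covariate (unadjusted p 0.000268, adjusted p 0.112). All members overlapped there, against 1.47% of genes without overlap, and the covariate fit called 0.0865% of genes. Slamf1 was filtered out as too low in the granule-gated and lymphoid-gated label fits, which tested 5 members. The edgeR fits called 0 members in each of these 5 sets of cells, with and without the covariate.

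Whether the step between states differed by label was tested for 6 members and 3 contrasts by exact permutation of the libraries, 18 tests in all. The rise of Flt3 from stem-gated to lymphoid-gated cells was 1.88 under the knockout label and 1.28 under the wild-type label on the log2(CPM + 1) scale (two-sided exact p 0.0286, the smallest 3 against 4 libraries can give, adjusted p 0.257). The rise of Cd34 from stem-gated to ungated cells was 0.26 against 0.36 (exact p 0.0286, adjusted p 0.257), and the other tests gave adjusted p of at least 0.343.

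Shares of cells with a UMI were taken at 3000 UMIs per cell. Flt3 was detected in 35.1%, 39.3% and 43.2% of cells in the libraries labelled knockout and in 49.8%, 56.1%, 57.8% and 53.3% in those labelled wild-type. The difference was -15.0 percentage points (39.2% ± 4.07 against 54.2% ± 3.50, SD, n = 3 and 4; two-sided exact permutation p 0.0286, adjusted over 11 shares 0.157). Slamf1 was detected in 2.04%, 2.11% and 2.85% of cells against 1.45%, 1.96%, 1.24% and 1.71%, again without overlap (exact permutation p 0.0571, adjusted p 0.21). At 5000 UMIs per cell the Slamf1 groups overlapped, at 2.99%, 2.18% and 4.41% against 1.74%, 3.22%, 1.87% and 2.66% (exact permutation p 0.286). Flt3 and Slamf1 were 2 of 6 members without overlap, against 3.92% of all genes. The other members overlapped: Kit was detected in 34.8% to 59.2% of cells, Cd34 in 47.5% to 64.3%, Cd48 in 21.0% to 43.6% and Ly6a in 4.95% to 14.3%. Without thinning, Kit was found in 67.4% to 88.4% of kept cells, Ly6a in 15.0% to 34.4% and Slamf1 in 2.82% to 8.29%, so in each library most kept cells had no UMI of Ly6a, whose protein was sorted on.

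As a measure of free RNA, 60 neutrophil-gated cells of list A (median 7589 UMIs) had a UMI of Flt3 in 6.67%, Cd34 in 5%, and Kit, Ly6a and Cd48 in 1.67% each, and Slamf1 in 0 of 60, which allows a share of up to 5% for counting error alone. Stem-gated cells of list A (median 7698 UMIs) had Kit in 61.7%, Cd34 in 52.7%, Flt3 in 44.6%, Cd48 in 19.8%, Ly6a in 14.8% and Slamf1 in 2.75%. In list A the shares of the members other than Slamf1 lay above the neutrophil-gated level, and 60 cells cannot place Slamf1. Over both lists 214 cells passed the neutrophil gate and 66 passed it alone. The granule gate was also passed by 119 of them and the stem gate by 30. Leaving these out removed neutrophil-gated cells with RNA of other states, so the level may be too low. List B held 6 neutrophil-gated cells, of which 4 had a UMI of Cd34 and 3 of Cd48, too few to set a level for that list.

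The subsets of the SLAM scheme were read as combinations of transcripts. Cells with Slamf1 and without Cd48, the combination of stem cells in protein sorts, made up 1.6%, 1.86% and 2.10% of cells under the knockout label and 1.11%, 1.78%, 0.966% and 1.43% under the wild-type label (exact permutation adjusted p 0.314). Cells with Cd48 but neither Slamf1 nor Flt3 made up 18.7%, 14.5% and 21.2% against 11.3%, 9.25%, 9.52% and 13.6%, without overlap (18.2% ± 3.38 against 10.9% ± 2.02, SD, n = 3 and 4; exact permutation p 0.0286, adjusted p 0.157). The groups of that combination did not overlap at 5000 UMIs per cell or in list A alone either. With a gene counted only at 2 or more UMIs they overlapped (7.75% ± 4.63 against 4.15% ± 1.93, exact permutation p 0.229, adjusted p 0.629). The combination requires that no UMI of Flt3 was found, and Flt3 was itself detected in fewer cells under the knockout label. How far this accounts for the difference was not tested. Cells with Cd48 and Flt3 but no Slamf1 made up 11.9%, 9.48% and 21.6% against 12.3%, 11.6%, 14.8% and 20.9% (adjusted p 0.914). Cells with both Ly6a and Kit, the combination of the sort, made up 3.74% to 6.89% of a library. At this depth a missing UMI does not show that a cell lacks the transcript or the protein.

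Within single cells, some pairs of members were found together less or more often than the product of their shares. Flt3 and Slamf1 were found together in 94 cells where 228 would follow from the product, a median ratio of 0.385 and under 1 in 7 of 7 libraries. Cd48 and Slamf1 were found together in 103 cells against 176 (median ratio 0.604), Cd34 and Slamf1 at a median ratio of 0.674, and Ly6a and Cd48 in 806 cells against 1059 (median ratio 0.736), each under 1 in 7 of 7 libraries. Some libraries lay near 1, on few cells for the pairs with Slamf1. The highest ratios were 0.924 for Flt3 with Slamf1, 0.984 for Cd48 with Slamf1, 0.912 for Cd34 with Slamf1 and 0.954 for Ly6a with Cd48. The pairs over 1 in 7 of 7 libraries were Kit with Slamf1 (1.26), Cd34 with Cd48 (1.14) and Cd34 with Flt3 (1.08). Ly6a and Kit, the sorting pair, had a median ratio of 1.13 and lay over 1 in 6 of 7 libraries.

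**Figure D4:**
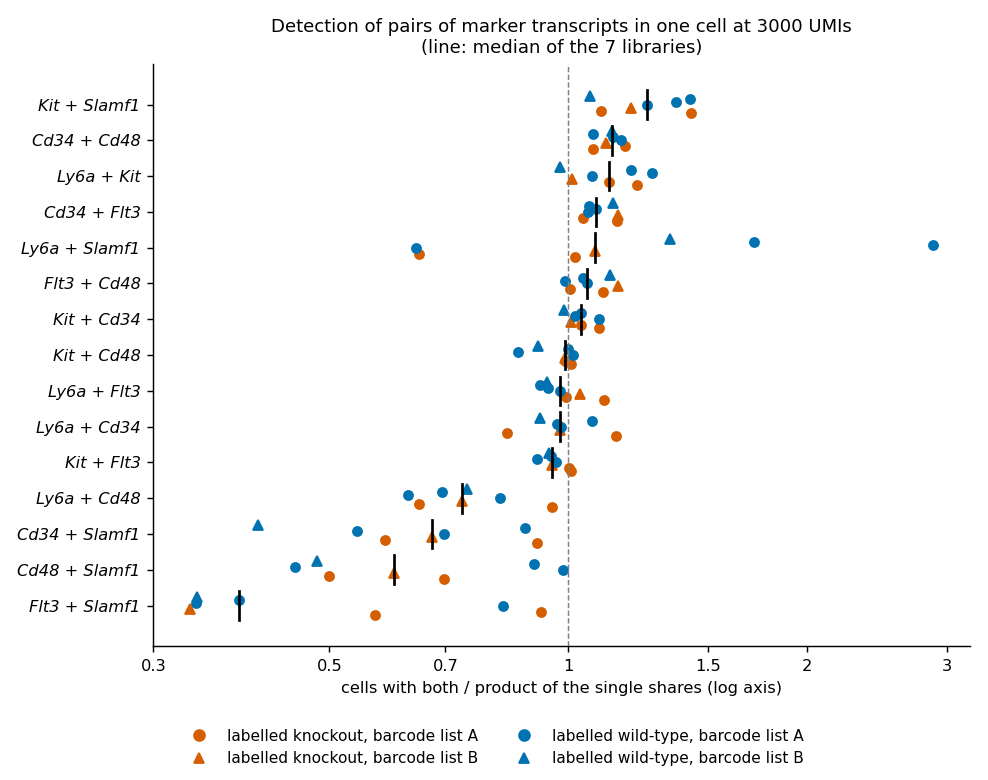
Observed number of cells with a UMI of both genes over the number given by the product of the single shares, on a log axis, for the 15 pairs of members at 3000 UMIs per cell, 1 point per library and a line at the median of 7. The 3 lowest pairs all hold Slamf1, with Flt3, Cd48 and Cd34.

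Cells with a UMI of each member were then compared with cells without one, over all other genes. Cells with Slamf1 numbered 60, 33 and 194 in the libraries labelled knockout and 17, 21, 18 and 149 in those labelled wild-type. They held less Flt3 (-1.53 ± 0.14, edgeR adjusted p 4.41e-25), Cd48 (-1.09 ± 0.15, 9.87e-11) and Cd34 (-0.93 ± 0.12, 1.58e-11), 3 of the 5 other members against 7.17% of all genes. Cd48 was at -0.73 in list A alone (adjusted p 0.111), and at 5000 UMIs per cell Flt3 was at -1.29 (adjusted p 0.0633). Of the megakaryocyte gate genes 4 of 5 tested were higher and 0 lower, among them Cavin2 (2.76), Pf4 (2.30) and Itga2b (1.37), and of the 8 stem gate genes 5 were higher and 0 lower. The genes with the largest rises were Pf4, Mmrn1, a platelet granule protein (1.71), and Tgfbr3 (1.55), each higher in 6 of 7 libraries. The largest falls were in Prss34, a basophil protease, Chil3 and Ltf, all without a UMI in these cells. They were so at least 20.3-fold, 17.8-fold and 14.4-fold lower, with 3 UMIs over all Slamf1 cells as the floor. Prss34 was lower in 4 libraries and higher in 0, while Chil3 and Ltf were lower in 7 of 7.

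Cells with Flt3 held less Slamf1 (-1.95 ± 0.22, edgeR adjusted p 1.5e-06) and Kit (-0.15, 0.0152) and more Cd34 (0.39, 3.87e-07) and Cd48 (0.26, 0.000232), 4 of 5 other members against 16.5% of all genes. Kit (adjusted p 0.149) and Cd48 (0.185) did not pass in list A alone, and Kit did not pass either without wild-type replicate 2, 3 or 4 (0.065, 0.0716 and 0.0671). All 4 lymphoid gate genes tested were higher, with Dntt at 2.53, and 7 of 8 stem and 4 of the megakaryocyte gate genes were lower. The largest rises were in Ighv1-77 (2.72), Dntt and Cmah (2.36), and the largest falls in the neutrophil genes S100a9 (-4.13), Camp (-4.11) and Ltf (-4.07).

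Cells with Cd48 held less Slamf1 (-1.13 ± 0.17, edgeR adjusted p 5.79e-08) and Ly6a (-0.60, 4.1e-10) and more Cd34 (0.38, 1.69e-11) and Flt3 (0.20, 0.00121), 4 of 5 members against 24.0% of all genes. In list A alone Cd34 was the 1 member called (0.34), with Slamf1 at -0.81 (adjusted p 0.077) and Ly6a at -0.32 (0.0757). All 14 cycling gate genes, 4 of 4 lymphoid and 5 of 5 monocyte gate genes were higher, and 8 of 8 stem gate genes lower. The largest falls were in Ltf (-2.77), Abcg3 (-1.86) and Dlg2 (-1.80), and the largest rises in Igha (1.40) and the basophil proteases Mcpt8 (1.15, higher in 6 of 7 libraries) and Prss34 (1.01), where Igha and Prss34 were each higher in 2 libraries and lower in 2.

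Cells with Ly6a held less Cd48 (-0.62 ± 0.07, edgeR adjusted p 4e-15), the 1 member of 5 called against 20.1% of all genes. All 8 stem gate genes were higher and all 14 cycling gate genes lower. The largest rises included Abcg3 (1.12) and the interferon-induced Ifi44 (1.10), each higher in 7 of 7 libraries, beside Igha, which was higher in 1 library and lower in 3. The largest falls were in Prss34 (-4.57, lower in 4 libraries and higher in 0), Chil3 (-3.36) and Ltf (-3.16), the last 2 each lower in 6 libraries. Cells with Kit held more Slamf1 (0.56 ± 0.15, adjusted p 0.00644) and less Flt3 (-0.26 ± 0.04, 1.21e-05), 2 of 5 members against 16.1%, and at 5000 UMIs Slamf1 was at 0.26 (adjusted p 0.233). All 8 stem gate genes were higher there, 12 cycling and 3 lymphoid gate genes lower, with the largest rises in Pcdh7 (0.68), Csgalnact1 (0.65) and Shank3 (0.62) and the largest falls in Igha (-3.98, higher in 2 libraries and lower in 2), S100a9 (-3.60) and Ltf (-3.50). Cells with Cd34 held more Cd48 (0.51 ± 0.06, 1.17e-06) and Flt3 (0.42 ± 0.08, 0.00309) and less Slamf1 (-1.41 ± 0.20, 9.51e-05), 3 of 5 members against 7.17%, and at 5000 UMIs Flt3 was at 0.69 (adjusted p 0.0612). There 7 of 8 stem gate genes were lower, and the largest rises were in Ighv1-77 (0.85), Ccl3 (0.71) and H2-Ob (0.67). The largest falls with Cd34 were in Igha (-5.17, higher in 2 libraries and lower in 2), Igkc (-4.55, lower in 5 and higher in 0) and Ltf (-4.42).

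**Figure D5:**
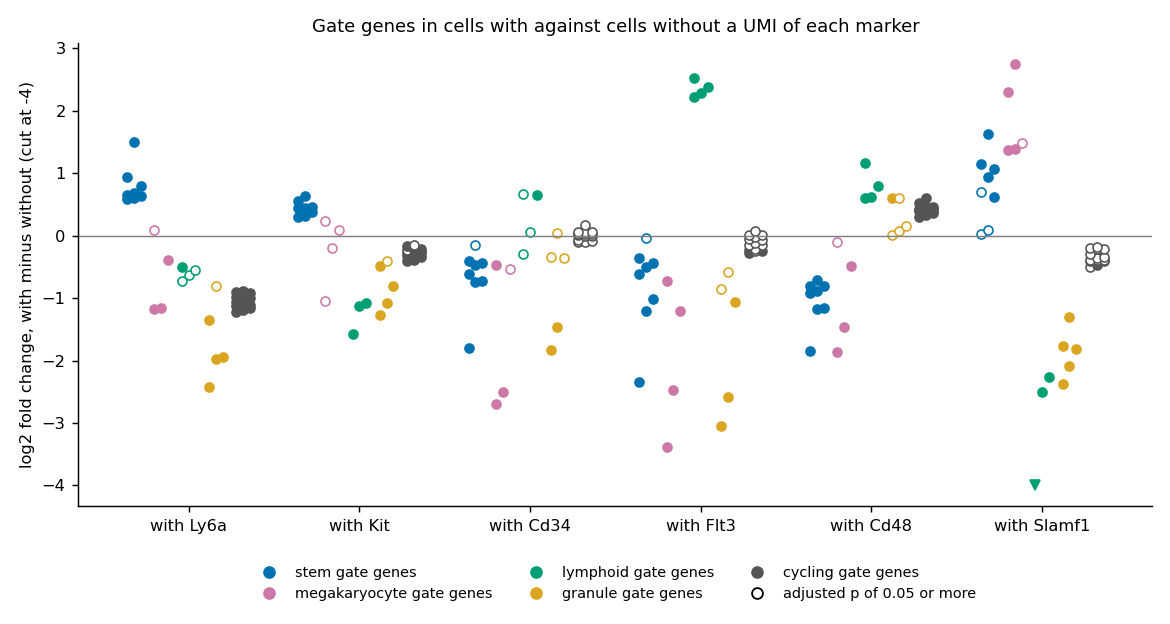
Log2 fold change of the genes of 5 gates in cells with against cells without a UMI of each member, 1 point per gene, filled where the edgeR adjusted p was under 0.05, with values beyond -4 drawn at -4 as a triangle. Stem gate genes lie above 0 for Ly6a and Kit and mostly below 0 for Cd34, Flt3 and Cd48, lymphoid gate genes are highest for Flt3 and megakaryocyte gate genes for Slamf1.

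The cell cycle was read in ungated cells, split by at least 3 UMIs of 14 mitotic genes. Ly6a was lower in cycling cells by -0.64 ± 0.11 (edgeR adjusted p 7.24e-06, lower in 5 of 7 libraries), Flt3 by -0.25 (0.00219, 5 of 7) and Kit by -0.18 (0.0328, 6 of 7), 3 of 6 members against 31.2% of all genes. In list A alone 0 members were called, with Ly6a at -0.58 (adjusted p 0.156). Kit did not pass with any library but wild-type replicates 2 and 3 left out (adjusted p 0.0546 to 0.0765). Cd48 (0.13), Cd34 (-0.09) and Slamf1 (0.23) did not pass.

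The genes whose levels ran most like each member over 38 sums of library and state, centred within library, are given as a description. For Flt3 they were Gpr171, Snx29 and Rnf220 (Pearson r 0.965, 0.954 and 0.953), for Cd34 Tespa1, B3gnt5 and Trf (0.956, 0.948 and 0.941), for Cd48 BC035044, Psme1 and Psmb8 (0.939, 0.929 and 0.924). For Kit the closest was Ikzf2 (0.934). For Ly6a they were Fbxl17, Kiz and Gcnt2 (0.909, 0.907 and 0.889), and for Slamf1 Fbxo9, Tgfbr3 and Epb41 (0.821, 0.820 and 0.819). The sums of 1 library share their depth and preparation.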

How the data were processed

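The data are single-cell RNA libraries of LSK cells, 3 labelled knockout and 4 labelled wild-type. Each deposited matrix holds raw UMI counts, and per the file headers the authors' version of Cell Ranger was 7.0.0. The submitters' processing notes also name Seurat 4.4.0 and mm10, and the labels name the Single Cell 3′ v2 kit for every library. Gene positions are from GENCODE annotation of GRCm38.

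Barcodes with at least 1000 UMIs, 500 genes and at most 10% mitochondrial UMIs were kept as cells (Python 3.11.15, scanpy 1.11.5). Scrublet marked 0 to 5 barcodes per library, which is too few to have worked, so doublets remain, and an alternative dropped the highest scores (0.8% per 1000 barcodes). Counts were summed per library and state (at least 20 cells) and tested two-sided in edgeR 4.0.16 under R 4.3.3 by its quasi-likelihood F test (TMM, filterByExpr, robust), with Benjamini-Hochberg adjustment at 0.05 over all genes tested. State, cycling and with-against-without fits had the library as a block. CPM values are plain counts scaled to a common library total, and within-library ratios add 1 CPM. Shares were compared by exact permutation over 35 splits.

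On simulated counts with 200 genes changed by a log2 of 1 at dispersion 0.05, the label fit over all kept cells (14443 genes) recovered 62.0% and made 6 false calls. The granule fit (13419 genes) recovered 94.5%, and the Flt3 fit (11904 genes) 96.5%. The simulated libraries differed in depth but not by barcode list, and the changed genes were drawn from those with more counts. These shares therefore do not give the power of the fits on the real counts.

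The members and lists were chosen with earlier results of these data known. Beyond the members, up to 4 genes per list with the smallest p, 3 rises and 3 falls per with-against-without fit and the 3 genes most like each member are named, the last 2 with a mean CPM of at least 20. A few genes that this rule names are not reported here. Alternatives were each library left out, all genes unfiltered, DESeq2 1.42.0, the barcode list as a covariate or either list alone, a replicate block, other cell filters, gates 1 UMI higher and other depths. The list covariate with libraries left out, list A alone within states and in the cycling test, the contrast of lymphoid-gated with granule-gated cells and the steps of the stem gate were added after the data had been seen.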

Additional observations from a re-analysis of the deposited data

Results flagged for a closer look

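Kit in granule-gated cells of wild-type replicate 4 was flagged because it lay far from the other libraries of its label. It stood at 113.7 CPM, against 212 to 217 CPM in the other 3 libraries labelled wild-type. Knockout replicate 3, the other library of barcode list B, held 122 CPM. Outliers were looked for in 36 groups of 4 libraries, and chance flags about 1 in 20 such groups. The part of the barcode list in this value was not tested.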

How the results depend on the processing

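Of 523 label differences of single members under the alternatives, 497 kept their direction and side of the threshold, and of 409 state differences 395 did. Those of 8 or more against 0 or 1 stem UMIs kept both in 60 of 60. In the main label fits 0 members had passed the threshold, so keeping that side says little for the label differences. Of these 523, 25 changed direction. By replicate number the libraries matched only in part. Deviations of same-numbered libraries correlated at 0.595, 0.802 and -0.429, and those of the list B pair at 0.905. Knockout replicate 1 correlated at 0.335 and 0.255 with wild-type replicates 2 and 3. Knockout replicate 2 correlated at 0.55 and 0.413 with wild-type replicates 1 and 3. The replicate block set knockout replicate 3 beside wild-type replicate 3, of the other list, and left wild-type replicate 4 alone. With the replicate block the label fit called 1 gene over all kept cells, Flt3 was at -0.68 (adjusted p 0.269), and in ungated cells 1 member was called against 0, Ly6a at 1.5 (adjusted p 0.0268).

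Leaving out single libraries moved the label differences over all kept cells from -0.071 to 0.82 for Cd48, -0.51 to 0.13 for Cd34 and -0.18 to 0.73 for Ly6a. Ly6a ranged from 0.53 to 1.20 in stem-gated, 0.00035 to 1.35 in granule-gated and 0.72 to 1.57 in ungated cells, and Flt3 from -1.18 to -0.34 in granule-gated cells. The lowest values of Cd48 and Ly6a over all kept cells, and of Cd48 in the stem, granule, lymphoid and ungated cells that follow, were those without knockout replicate 3. Cd48 ranged from -0.22 to 0.48 in stem-gated, -0.62 to 0.49 in granule-gated, -0.40 to 0.61 in lymphoid-gated, -0.18 to 0.48 in ungated cells and -0.30 to 0.014 with 8 or more stem UMIs. Cd34 ranged from -0.75 to 0.048 in granule-gated and -0.43 to 0.18 in lymphoid-gated cells, where Kit ranged from -0.35 to 0.044 and Flt3 from -0.050 to 0.11. Cd34 ranged from -0.20 to 0.0094 from stem-gated to monocyte-gated and from -0.017 to 0.045 from granule-gated to lymphoid-gated cells. Ly6a ranged from -0.21 to 0.016 with against without Cd34 and from -0.12 to 0.011 with against without Flt3. The share with Ly6a and Kit ranged from -0.080 to 1.14 points, and that with Cd48 and Flt3 but no Slamf1 from -4.22 to 1.83 points. The cause was not tested for any of these.

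By list, Cd34 over all kept cells was 0.079 in list B (-0.10 over all). The label difference of Cd48 in granule-gated cells was -0.088 with the list covariate and -0.26 in list A (0.13), and with 8 or more stem UMIs 0.025 in list A (-0.081). Flt3 was 0.20 in list B from stem-gated to granule-gated, Cd34 0.082 in list B to monocyte-gated cells, and Slamf1 0.26 in list A from granule-gated to lymphoid-gated cells. With against without Ly6a, Cd34 was 0.033 in list A. Ly6a was 0.0996 in list A and 0.0050 at 5000 UMIs for Cd34, 0.0048 and 0.073 for Flt3, and -0.11 in list A for Slamf1. Cd34 in lymphoid-gated cells by label was 0.063 with the replicate block and 0.0011 with gates 1 UMI higher (-0.035). At 2 or more UMIs the share differences were -0.027 points for Slamf1, -0.027 for Slamf1 without Cd48 and 0.080 for Cd48 and Flt3 without Slamf1.

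Members called numbered 3 in list B for ungated against stem-gated cells (5), and 0 in list A for cycling cells (3). In list A they were 2 with Ly6a (1), 4 with Kit (2), 2 with Flt3 (4) and 1 with Cd48 (4). With Ly6a they were also 2 with no gene filter and with high doublet scores removed, and 1 to 3 with libraries left out. Over all kept cells the label fit called 366 genes in list A alone and 163 with the list as a covariate, against 0 without it. The 3 libraries labelled knockout, 2 barcode lists and 2 UMIs of Slamf1 in monocyte-gated cells limit what these differences can show.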

Other observations

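Barcodes that failed the mitochondrial filter in list A, 688 to 1344 per library, were left out of the report. They held less Ly6a (median log2 difference from kept cells -1.18), Cd34 (-1.19), Cd48 (-1.03) and Flt3 (-0.19), each lower in 5 of 5 libraries. Kit (0.37) and Slamf1 (0.89) were higher in 5 of 5. The filter therefore bears on these levels in list A, where it removed many barcodes, and less in list B, where 48 and 173 barcodes failed it.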
